A study of Mus musculus with 6 samples.

Results

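Ribo-seq counts of 10 mouse genes that move or bind zinc, out of the 56747 genes in the table, were compared between primary pancreatic islets in high and in low glucose. They were taken by gene name, each matching 1 row, as 8 zinc transporters (Slc30a8, Slc30a1, Slc30a5, Slc30a7, Slc30a9, Slc39a6, Slc39a7, Slc39a14) and 2 metallothioneins (Mt1, Mt2). In high glucose, ribosome-protected fragments (RPFs, or footprints) of the Golgi zinc transporter Slc30a7 rose by 50.9% and those of the insulin granule zinc transporter Slc30a8 rose by 15.5%. Footprints of the zinc-binding protein Mt1 fell by 27.6%, and by less when low-glucose library 1 was left out. The Slc30a8 and Mt1 results did not pass the test under every alternative setting. The other 7 genes did not pass the test, with 5 of them at a higher and 2 at a lower estimate in high glucose.

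The islets came from male C57BL/6J mice aged 6 to 8 weeks, and no genetic change is given for either group. The high-glucose group (3 libraries) was kept for 2 h in 25 mM glucose and the low-glucose group (3 libraries) for 2 h in 2.5 mM glucose. All islets had recovered overnight in complete medium and had then been held without glucose before either concentration was reached, and cycloheximide at 100 µg/mL was added to both groups for the last 15 min. Per the study's methods, islets of each mouse were divided between the conditions, several mice were pooled for a replicate, and about 500 to 600 islets entered a library, so a library is a mean over mice and over all cell types of the islet.

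Beta cells hold more zinc than most cells because insulin is stored as a crystal with zinc ions. Zinc transporters of the SLC30 family (ZnT) carry zinc out of the cytosol, either across the plasma membrane or into organelles, and those of the SLC39 family (ZIP) carry it into the cytosol from outside or from organelles. Metallothioneins are small cysteine-rich cytosolic proteins that bind zinc and other metals. When cytosolic zinc rises, the transcription factor MTF1 binds metal response elements in the promoters of the metallothionein genes and of Slc30a1 and activates them. A footprint count depends both on how much mRNA a gene has and on how many ribosomes each mRNA carries, and these were not separated here. In such bulk samples, fewer cells of a type and less RNA per cell cannot be told apart either.

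The promoters that MTF1 is best known for are shown first, since Mt1 and Mt2 both had lower footprint estimates in high glucose and Slc30a1 a higher one. Of these genes only Mt1 passed the test, and Mt2 and Slc30a1 did not. RefSeq windows of 300 bases (250 before to 50 after the gene's start, build GRCm38.p6) were searched on both strands for the metal response element core, written as TGCACNC and TGCGCNC, forms that cannot match at the same place on 1 strand. Of the 10 genes, 7 had a window. The Mt1 window, chr8:94178839-94179138 on the plus strand, held 3 matches, and the Mt2 window, chr8:94172368-94172667 on the plus strand, held 4. The Slc30a1 window, chr1:191906531-191906830 on the plus strand, held 2. The Mt1 matches began 23, -2 and -20 bases before the annotated start, where negative values lie after it. All such counts depend on the annotated start, and sequence outside the windows was not searched. Capitals mark the matches, which read backwards on the complementary strand where they end in GCA.
Mt1: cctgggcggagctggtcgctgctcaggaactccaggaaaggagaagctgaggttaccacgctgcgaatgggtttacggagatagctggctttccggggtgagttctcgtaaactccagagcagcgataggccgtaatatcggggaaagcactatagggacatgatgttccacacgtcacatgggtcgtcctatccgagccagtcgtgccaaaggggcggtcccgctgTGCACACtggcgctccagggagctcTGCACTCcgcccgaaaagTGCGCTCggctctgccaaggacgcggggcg
Mt2: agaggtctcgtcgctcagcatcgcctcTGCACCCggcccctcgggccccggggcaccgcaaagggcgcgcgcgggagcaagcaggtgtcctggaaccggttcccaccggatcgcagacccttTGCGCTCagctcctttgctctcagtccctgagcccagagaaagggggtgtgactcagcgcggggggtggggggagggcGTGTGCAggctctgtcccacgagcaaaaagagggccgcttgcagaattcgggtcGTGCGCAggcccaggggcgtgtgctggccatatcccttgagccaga
Slc30a1: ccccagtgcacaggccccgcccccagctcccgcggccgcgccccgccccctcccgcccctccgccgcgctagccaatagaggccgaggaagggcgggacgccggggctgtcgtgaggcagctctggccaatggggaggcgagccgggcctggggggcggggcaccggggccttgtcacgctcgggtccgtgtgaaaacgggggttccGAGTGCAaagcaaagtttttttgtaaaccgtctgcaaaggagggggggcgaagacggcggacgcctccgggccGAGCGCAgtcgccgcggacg
Among all 32851 windows of this length, 25.7% held at least 1 match, 7.11% at least 2, 1.97% at least 3 and 0.517% at least 4. The Slc30a5 window held 1 match, and those of Slc30a7, Slc30a9 and Slc39a7 held 0. Outside the 10 genes, the windows of the zinc transporters Slc30a4 and Slc30a10 held 3 matches each, as that of Mt1 did. The Slc30a2 window held 2, as that of Slc30a1 did, and windows of the remaining zinc genes searched held 0 or 1. A match is only a run of letters, and binding of MTF1 was not measured.

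The libraries held 16322162 to 20692579 counts in high glucose and 9242549 to 12175699 counts in low glucose. Levels are given in CPM, the usual scaling of counts to a common library size, with edgeR's TMM factors (0.98 to 1.0237). The low-count filter left 13100 genes, all 10 zinc genes among them, for the quasi-likelihood test of edgeR. Each log2 fold change (log2FC) is high over low glucose, each adjusted p is a Benjamini-Hochberg value over these 13100 genes, and a gene is called higher or lower at an adjusted p under 0.05. The marker genes of beta cells summed to 159800 to 174700 CPM in high glucose and 131100 to 147100 CPM in low glucose, and those of acinar cells, the enzyme-making cells around islets, summed to 276 to 293.6 CPM in high glucose and 657.6 to 705.8 CPM in low glucose.

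Of the 10 genes, 2 were called higher and 1 was called lower in high glucose, beside 12.1% of all genes tested called higher and 10.2% called lower. The median log2FC was 0.21 over the 10 genes and -0.01 over all genes tested. Libraries of the conditions did not overlap for 3 genes with higher values in high glucose (Slc30a8, Slc30a7, Slc39a6) and for 2 with lower values (Mt1, Mt2). For all genes tested, the shares without overlap were 19.5% higher and 18% lower. The cutoffs of the study's methods (more than 1.5-fold, unadjusted p below 0.05) were also applied to the edgeR values. Slc30a7 alone was past them, narrowly at 1.51-fold, beside 6.6% of all genes higher and 8.58% lower. Under some alternatives its change was below 1.5-fold. Examples are log2 changes of 0.556 with the betaPrior setting of DESeq2, 0.551 with upper-quartile factors and 0.545 with library totals.

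**Figure D1:**
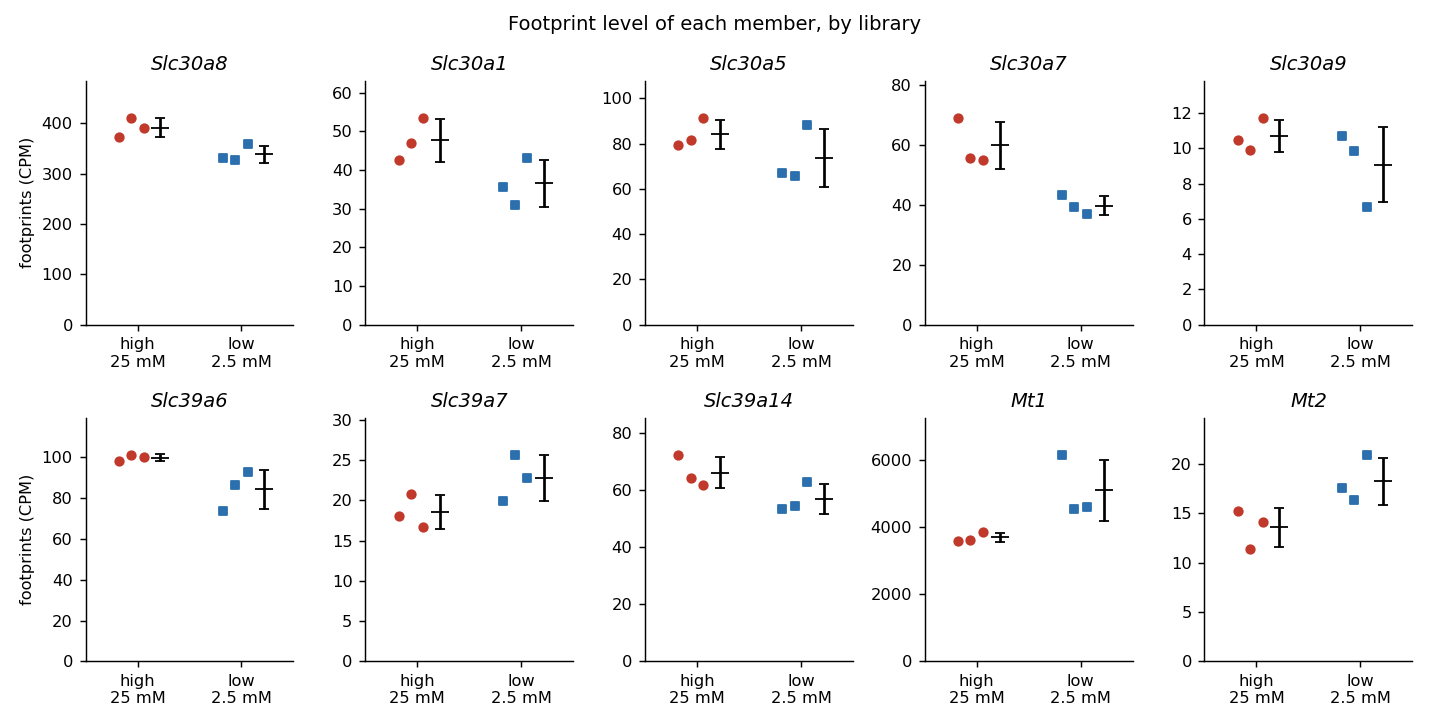
Footprint level in CPM (vertical axis, from 0, 1 scale per gene) of the 10 genes in each library, with high-glucose libraries as circles and low-glucose libraries as squares, and bars for the mean and SD (n = 3 each). The conditions separate for Slc30a8, Slc30a7 and Slc39a6 (high glucose above) and for Mt1 and Mt2 (high glucose below), and overlap for the other genes.

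Among the exporters, Slc30a8 (ENSMUSG00000022315, chromosome 15), which loads zinc into insulin granules, had 372.4, 410.5 and 391.5 CPM in high-glucose libraries 1 to 3, against 330.9, 327.5 and 358.3 CPM in low-glucose libraries 1 to 3. Every high-glucose library lay above every low-glucose library. The means were 391.5 ± 19.0 CPM in high glucose and 338.9 ± 16.9 CPM in low glucose (SD, n = 3 each), and the log2FC was 0.21 ± 0.06 (SE) with an interval of 0.08 to 0.34 at 95% and an edgeR adjusted p of 0.0192. The call was lost, at the same sign, with scaling by upper-quartile factors (adjusted p = 0.0653) or library totals (adjusted p = 0.0701), and without high-glucose library 2 (0.119), high-glucose library 3 (0.0586) or low-glucose library 2 (0.0723).

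Slc30a8 was also set against the hormone it is stored with. Per 1000 footprints of Ins1 plus Ins2, the insulin genes, it had 2.814, 2.947 and 2.693 footprints in high glucose, against 3.208, 2.872 and 3.09 in low glucose. The ratio thus leaned the other way from the CPM, with overlap between the conditions. It averaged 2.82 ± 0.127 in high glucose and 3.06 ± 0.17 in low glucose, a log2 difference of -0.12 that an exact two-sided permutation test did not separate from 0 (p = 0.2). With 3 libraries against 3 the smallest p this test can give is 0.1. Of the 8 beta-cell markers, 5 were called higher (Ins1, Ins2, Slc2a2, Pdx1, Nkx6-1) and 2 lower (Iapp, Mafa). The higher sum given above came mostly from the insulin genes, at 132300 to 145400 CPM in high glucose and 103100 to 116000 CPM in low glucose. The other 6 summed to 27490 to 29380 CPM in high glucose and 27980 to 31090 CPM in low glucose. Most of this was Iapp, and these sums overlapped between conditions. Without Iapp, the remaining 5 summed to 1207 to 1261 CPM in high glucose and 880.6 to 910.7 CPM in low glucose, without overlap. The part of cell composition in the Slc30a8 result was not tested.

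Slc30a7 (ENSMUSG00000054414, chromosome 3), which carries zinc into the Golgi, had the largest positive log2FC of the 10. Its level was 68.79, 55.65 and 54.92 CPM in high glucose, against 43.14, 39.1 and 36.72 CPM in low glucose. The lowest high-glucose library was above the highest low-glucose library by more than either group's SD. Means were 59.79 ± 7.81 CPM in high glucose and 39.65 ± 3.24 CPM in low glucose (SD, n = 3 each). The log2FC was 0.59 ± 0.13 (SE), with a 95% interval of 0.33 to 0.85 and an edgeR adjusted p of 0.00132. It was called higher under all 19 alternatives tried, in which its log2FC ran from 0.48 to 0.66 and its adjusted p from 3.12e-05 to 0.0195.

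Slc30a5 (ENSMUSG00000021629, chromosome 13), which with its partner Slc30a6 supplies zinc to the early secretory pathway, had 79.48, 81.5 and 91.27 CPM in high glucose, against 67.2, 65.6 and 88.47 CPM in low glucose. Low-glucose library 3 lay among the high-glucose libraries while the other low-glucose libraries lay below them. The log2FC of 0.19 had an interval of -0.05 to 0.42 and an edgeR adjusted p of 0.264, and only without low-glucose library 3 was it called (log2FC 0.34, adjusted p = 0.0423). The count ratio of Slc30a7 to Slc30a5, chosen after its values were seen, was 0.8655, 0.6829 and 0.6017 in high glucose, against 0.642, 0.5961 and 0.4151 in low glucose. These overlapped, and the log2 difference of 0.39 had a p of 0.2 in the exact two-sided permutation test, which cannot go below 0.1 here and so does not settle whether Slc30a7 and Slc30a5 differ in response.

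Slc30a1 (ENSMUSG00000037434, chromosome 1), the exporter of the plasma membrane, had 42.51, 47.07 and 53.44 CPM in high glucose, against 35.61, 31.04 and 43.06 CPM in low glucose. The groups overlapped only between high-glucose library 1 and low-glucose library 3. Its log2FC was 0.38 ± 0.14 (SE), larger than that of Slc30a8, but the edgeR adjusted p was 0.0562 (95% interval 0.09 to 0.68). Among the alternatives, it was called for example with limma-voom (adjusted p = 0.0456), with no low-count filter (0.0319), with at least 10 counts in every library (0.0477), and without high-glucose library 1 (0.049) or low-glucose library 3 (0.0227). Over all its alternatives the adjusted p ran from 0.0227 to 0.242.

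Slc30a9 (ENSMUSG00000029221, chromosome 5), which carries zinc out of mitochondria, was the lowest of the 10 in CPM. It had 10.5, 9.89 and 11.71 CPM in high glucose, against 10.7, 9.86 and 6.66 CPM in low glucose. Low-glucose library 3 stood below the other 5 libraries, which lay close together. The interval of its log2FC, -0.29 to 0.78 around 0.24, spans falls and rises alike (edgeR adjusted p = 0.564).

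The importers gave no call. Slc39a6 (ENSMUSG00000024270, chromosome 18), which brings zinc in at the plasma membrane, had 97.88, 101 and 100.2 CPM in high glucose, against 73.55, 86.1 and 92.61 CPM in low glucose. The high-glucose libraries were nearly equal and all above the more scattered low-glucose ones, with a coefficient of variation of 1.61% in high glucose and 11.5% in low glucose. The log2FC was 0.24 ± 0.10 (SE) with an unadjusted p of 0.0196 and an edgeR adjusted p of 0.0761, and it was called only without low-glucose library 3 (0.32, adjusted p = 0.0446). The protein-coding gene Elp2, which had 18538 counts, overlaps 3.98% of the Slc39a6 span on the opposite strand, and whether reads were counted by strand is not given in the sources used here.

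Slc39a14 (ENSMUSG00000022094, chromosome 14), an importer of zinc and of other metals such as iron and manganese, had 72.46, 64.34 and 62.03 CPM in high glucose, against 53.42, 54.54 and 62.96 CPM in low glucose. The conditions overlapped at low-glucose library 3. The log2FC was 0.22, with an interval of -0.01 to 0.45 and an edgeR adjusted p of 0.181.

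Slc39a7 (ENSMUSG00000024327, chromosome 17), which releases zinc from the endoplasmic reticulum into the cytosol, was the only transporter of the 8 with a negative estimate. Its level was 18.08, 20.81 and 16.74 CPM in high glucose, against 19.93, 25.64 and 22.75 CPM in low glucose. High-glucose library 2 overlapped low-glucose library 1. The log2FC of -0.30 had an interval of -0.67 to 0.07 and an edgeR adjusted p of 0.262, so a fall was not shown. A long noncoding gene on the same strand, Gm20427, covers 97% of the Slc39a7 span in the table's annotation and had 0 counts.

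**Figure D2:**
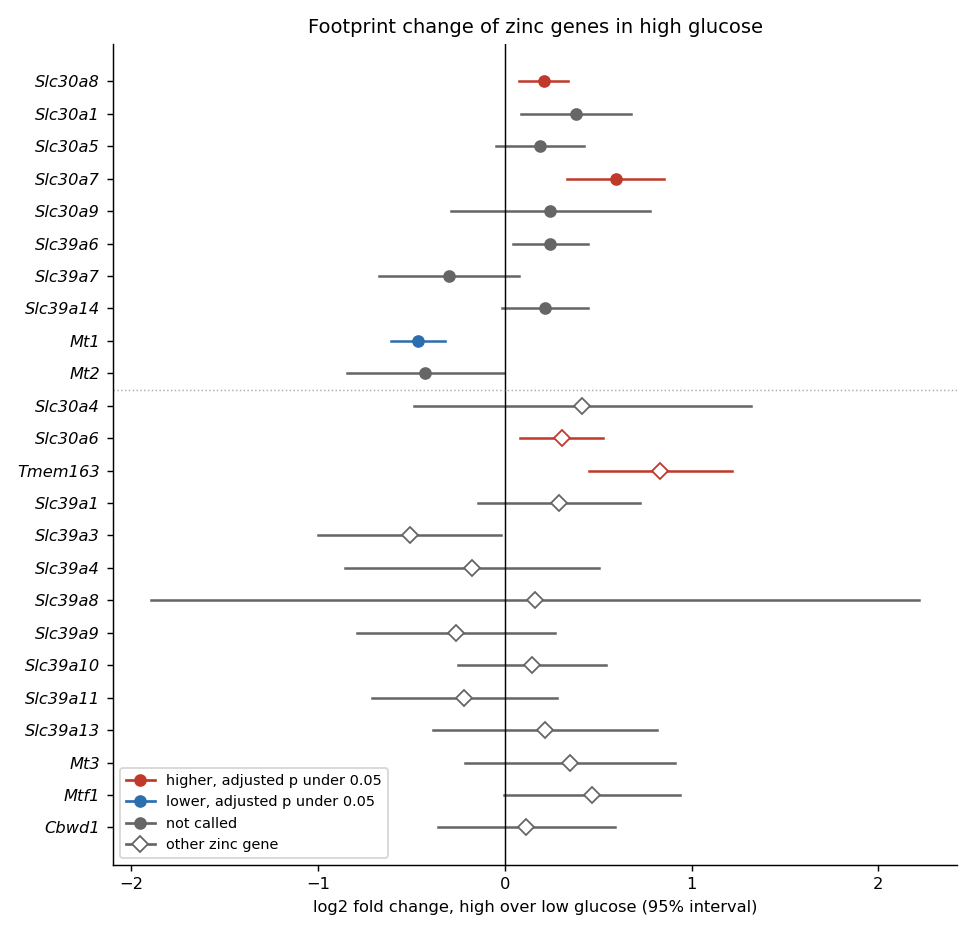
Log2 fold change of high over low glucose (horizontal axis) with its 95% interval from edgeR, for the 10 genes (filled circles, above the dotted line) and 14 further zinc genes (open diamonds). Slc30a8, Slc30a7, Slc30a6 and Tmem163 were called higher and Mt1 was called lower, and no other gene shown was called.

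Both metallothioneins had lower estimates in high glucose. Mt1 (ENSMUSG00000031765, chromosome 8), the more abundant of the pair, had 3599, 3634 and 3864 CPM in high glucose, against 6160.4, 4550.3 and 4613 CPM in low glucose. All high-glucose libraries lay below all low-glucose libraries, and low-glucose library 1 lay far above the other 2 of its group. Means were 3699 ± 144 CPM in high glucose and 5108 ± 912 CPM in low glucose (SD, n = 3 each). The log2FC was -0.47 ± 0.07 (SE) with an interval of -0.61 to -0.32 and an edgeR adjusted p of 3.56e-05.

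That SE is small beside the spread between libraries. The coefficient of variation of Mt1 was 3.89% in high glucose and 17.9% in low glucose, where counting alone would give 0.394% in high glucose and 0.423% in low glucose. With edgeR's robust dispersion the same log2FC had an adjusted p of 0.0969, so the call depended on how the gene's spread was estimated. DESeq2 kept the call at an adjusted p of 0.0142. Without low-glucose library 1 the log2FC was -0.32, still lower, with an adjusted p of 1.49e-09. Mt1 took 0.363% ± 0.0129 of all counts in high glucose and 0.519% ± 0.0956 in low glucose, and 82.4% ± 0.511 of the counts of the 10 genes in high glucose, against 88% ± 2.14 in low glucose (SD, n = 3 each).

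Mt2 (ENSMUSG00000031762, chromosome 8) had far fewer footprints than Mt1, with 15.23, 11.39 and 14.13 CPM in high glucose, against 17.49, 16.29 and 20.88 CPM in low glucose. These CPM rested on 245, 190 and 286 counts in high glucose and on 165, 190 and 257 counts in low glucose. The conditions did not overlap. The log2FC of -0.42 was close to that of Mt1, but with an SE of 0.20, an unadjusted p of 0.0492 and an edgeR adjusted p of 0.148 Mt2 was not called, and none of the 19 alternatives called it (adjusted p 0.105 to 0.397).

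The count ratio of Mt1 to Mt2 was 236.4, 319 and 273.5 in high glucose, against 352.3, 279.3 and 221 in low glucose. The ratios overlapped fully, and the log2 difference of -0.03 had a p of 0.9 in the exact two-sided permutation test, whose smallest p is 0.1. The metallothioneins are close copies of each other, how the authors' counting treated reads that fit both is not given in the sources used here, and the split of footprints between Mt1 and Mt2 is uncertain for that reason. In the table's annotation the opposite-strand noncoding gene Gm45774 also covers 82.8% of the Mt2 span and had 22 counts, and no annotated gene overlaps Mt1.

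Metallothioneins are made in many cell types, and the summed markers of several other cell types were lower in high glucose, as Mt1 was. Endothelial markers summed to 147.8 to 158.4 CPM in high glucose and 197.2 to 207.4 CPM in low glucose, with 2 of 5 called lower. Stellate-cell markers summed to 93.73 to 108.4 CPM in high glucose and 133.4 to 143.6 CPM in low glucose (2 of 5 lower), and macrophage markers to 54.27 to 60.35 CPM in high glucose and 78.15 to 83.62 CPM in low glucose (1 of 5 lower). All 8 acinar markers and 3 of 4 alpha-cell markers were called lower, with alpha-cell sums of 40670 to 43780 CPM in high glucose and 48900 to 50730 CPM in low glucose. Delta-cell markers summed to 4653 to 4716 CPM in high glucose and 6073 to 6700 CPM in low glucose (1 of 2 called lower). The alpha-cell and delta-cell sums include the hormone genes Gcg and Sst, both called lower (log2FC -0.24 and -0.42). Unlike the beta-cell sum, these sums were not split into hormone and other genes. Duct markers ran the other way, at 1800 to 1917 CPM in high glucose and 1544 to 1586 CPM in low glucose (2 of 4 called higher). Ppy, marking pancreatic polypeptide (PP) cells, was at 4552 to 5040 CPM in high glucose and 4261 to 4606 CPM in low glucose. It overlapped between conditions and was not called. No marker of these lists was at 0 in every library. The part of these cells in the Mt1 result was not tested.

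**Figure D3:**
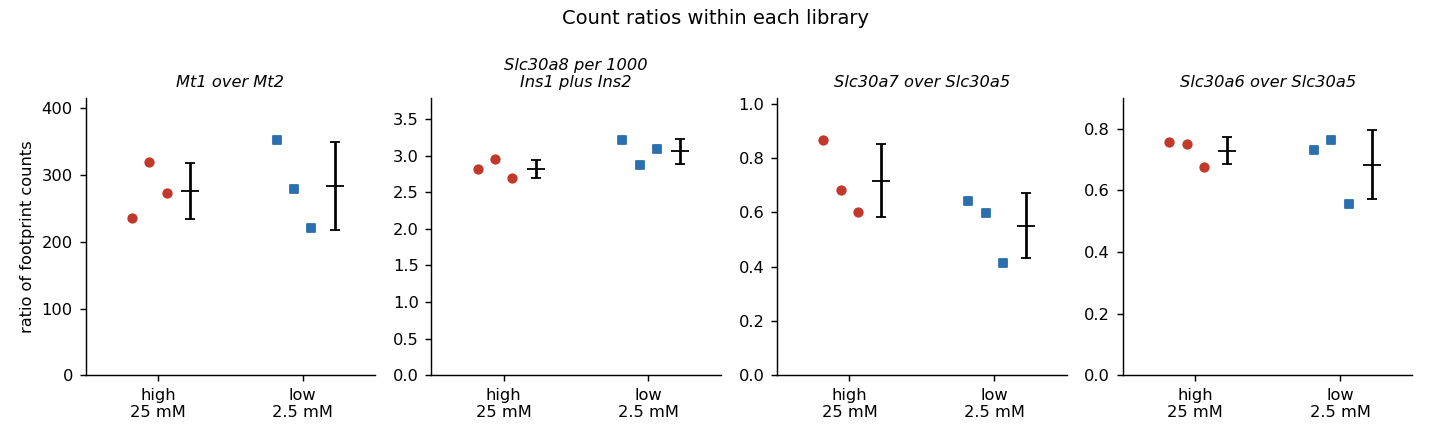
Ratios of footprint counts within each library (vertical axes from 0) for Mt1 over Mt2, Slc30a8 per 1000 Ins1 plus Ins2, Slc30a7 over Slc30a5 and Slc30a6 over Slc30a5, with high-glucose libraries as circles, low-glucose libraries as squares and bars for the mean and SD (n = 3 each). In all 4 panels the conditions overlap, and the exact p ran from 0.2 to 0.9.

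To compare levels between genes, CPM were divided by the gene length given in the table, which counts untranslated parts and, for Mt1, the whole span of 1246 bases, so these levels are only rough. On this scale of CPM per kb, Mt1 was at 2970 ± 115 in high glucose and 4100 ± 732 in low glucose. Slc30a8 came next, with 199 ± 9.65 in high glucose and 172 ± 8.58 in low glucose, and stood far above the other transporters. Mt1 and Slc30a8 were thus each separated from all genes below them by much more than the SDs.

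The next levels per kb were those of Slc39a6, with 24.5 ± 0.395 in high glucose and 20.6 ± 2.38 in low glucose, and of Mt2, with 23.1 ± 3.36 in high glucose and 31.0 ± 4.05 in low glucose. Their order was within the spread in high glucose, and Mt2 stood above Slc39a6 in low glucose. Slc30a5 (11.5 ± 0.865 in high glucose, 10.1 ± 1.75 in low glucose), Slc30a1 (9.09 ± 1.05 in high glucose, 6.97 ± 1.16 in low glucose) and Slc39a7 (7.18 ± 0.802 in high glucose, 8.81 ± 1.11 in low glucose) followed, and the SDs of Slc39a7 reached those of Slc30a5 and of Slc30a1 in low glucose. Slc39a14 was at 6.28 ± 0.519 in high glucose and 5.4 ± 0.494 in low glucose. Slc30a7 was at 5.38 ± 0.702 in high glucose, within the spread of Slc39a14, and at 3.57 ± 0.292 in low glucose, below it. Slc30a9 was lowest, with 0.865 ± 0.0745 in high glucose and 0.733 ± 0.172 in low glucose.

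**Figure D4:**
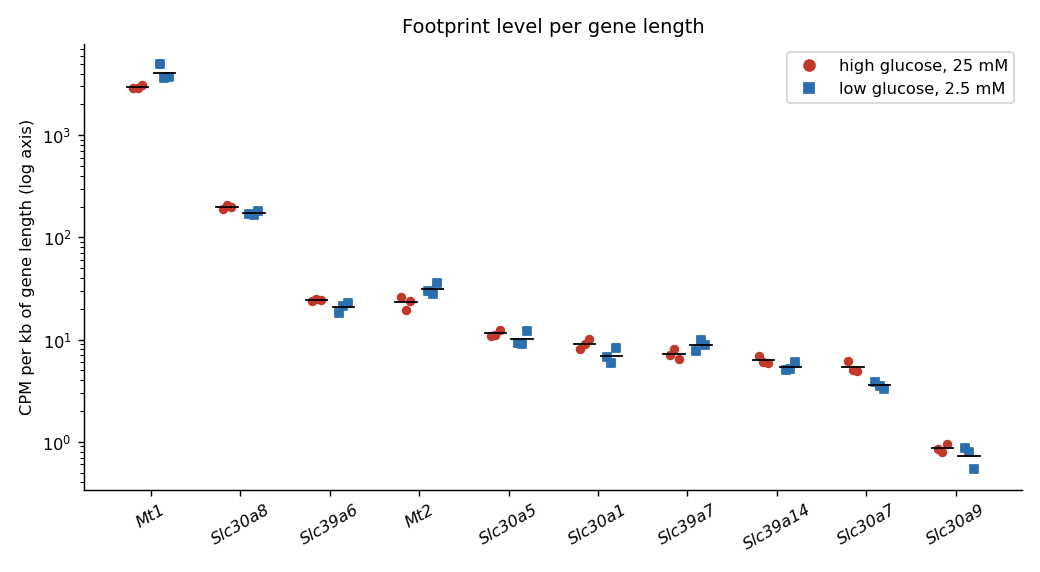
Footprint level in CPM per kb of gene length (log axis) of the 10 genes in each library, with high-glucose libraries as circles, low-glucose libraries as squares and lines at the means. Mt1 and Slc30a8 stand above the other genes and Slc30a9 below them in all 6 libraries.

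Beyond the 10 genes, 21 further zinc genes were looked up, of which 14 passed the low-count filter, and 2 of these were called higher and 0 lower by edgeR, with 0 lower also by DESeq2 and limma-voom. The share of all genes called higher was 12.1%, so 2 of 14 is near the background. Their median log2FC was 0.19, beside -0.01 over all genes tested. At an unadjusted p under 0.05 there was 1 with a lower value, the importer Slc39a3 (unadjusted p = 0.0428, edgeR adjusted p = 0.134), which overlapped between conditions at 11.9 ± 2.48 CPM in high glucose and 17 ± 4.59 CPM in low glucose (SD, n = 3 each). Tmem163, a zinc transporter of vesicle membranes, had the largest log2FC of all zinc genes tested. It had 35.86, 28.06 and 26.23 CPM in high glucose, against 16.43, 19.98 and 14.14 CPM in low glucose, with no overlap, a log2FC of 0.83 ± 0.18 (SE) and an edgeR adjusted p of 0.00186. All 19 alternatives kept this call.

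Slc30a6, the partner of Slc30a5, had 60.03, 61.11 and 61.79 CPM in high glucose, against 49.07, 50 and 49.15 CPM in low glucose. Replicates were nearly equal within each condition and the conditions did not overlap, but the call rested on the threshold, with a log2FC of 0.30 ± 0.11 (SE), an edgeR adjusted p of 0.0463 and a loss under 16 of 19 alternatives (adjusted p over all 19 between 0.0452 and 0.123). The count ratio of Slc30a6 to Slc30a5, chosen after its values were seen, was 0.7553, 0.7498 and 0.6769 in high glucose, against 0.7303, 0.7621 and 0.5556 in low glucose. The ranges overlapped, and the p was 0.7 in the exact two-sided permutation test (log2 difference 0.10), with the same smallest p of 0.1.

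Mtf1, the transcription factor of the metal response elements, had 27.22, 15.53 and 24.25 CPM in high glucose, against 11.66, 20.32 and 16.33 CPM in low glucose, and these overlapped (log2FC 0.47, edgeR adjusted p = 0.152). Mt3, a metallothionein best known from brain, was at 12.08 ± 1.26 CPM in high glucose and 9.46 ± 3.93 CPM in low glucose (SD, n = 3 each) and was not called. Of the genes under the filter, Slc39a12 had 0 counts in every library, and Slc30a2, Slc30a3, Slc30a10, Slc39a2, Slc39a5 and Mt4 had 2 to 32 counts over all 6 libraries.

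**Figure D5:**
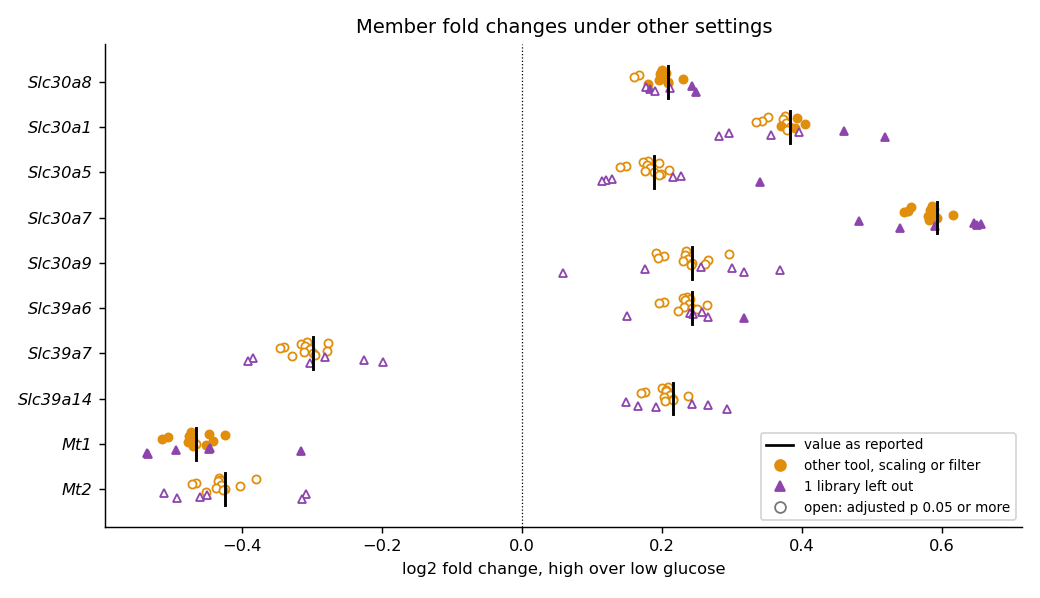
Log2 fold change (high over low glucose) of the 10 genes as reported (black bars), with another tool, scaling, filter, dispersion or block (circles) and with 1 library left out (triangles), where open symbols have an adjusted p of 0.05 or more. No gene crosses 0, Slc30a7 is filled throughout, and Mt1 has 1 open symbol, for the robust dispersion.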

How the data were processed

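Ribo-seq libraries of mouse islets were analysed from the deposited table of whole-number counts per gene, which no depth scaling had changed. Per the study's methods, the authors filtered out rRNA and tRNA reads before mapping with TopHat2 (version 2.0.12) and counting with HTSeq (version 0.9.1), and compared conditions with DESeq2 (version 1.14.1). Strand setting and treatment of multiply mapped reads are not given in the sources used here. The submitters' notes name mm10, but the table's positions overlapped those of RefSeq's GRCm38.p6 for 0 of the 10 genes, so only promoter positions, from RefSeq, are printed.

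Genes kept by filterByExpr (13100) were scaled by TMM and tested with edgeR (version 4.0.16; R version 4.3.3), adjusted by Benjamini and Hochberg over all of them (common dispersion 0.0422). The script was tested on simulated data. All replicate pairs differed beyond sampling noise (chi-square per degree of freedom 6.61 to 10.6). Alternatives were DESeq2 (version 1.42.0), limma-voom (limma version 3.58.1), other scalings, filters and dispersions, thinned libraries, a replicate block and each library left out. Gene length replaced coding length after the data had been seen. All 10 genes are named, and any further zinc gene that passed the filter could be. The genes, lists and markers were chosen with earlier results of these data known.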

Additional observations from a re-analysis of the deposited data

How the results depend on the processing

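Over the 10 genes and 19 alternatives, 174 of 190 values kept their side of the threshold, 8 lost a call, 8 gained one and 0 changed sign. The number of the 10 called higher was 2, and was 1 with upper-quartile factors, library totals only or the study's rule, 3 with limma-voom, no filter on low counts or a minimum of 10 counts per library, and 1 to 5 with each library left out (5 without low-glucose library 3, as Slc30a1, Slc30a5 and Slc39a6 joined). The number called lower was 1, and was 0 with the robust dispersion and 0 under the study's rule, since the fall of Mt1 was smaller than its fold limit. Of the further zinc genes, 2 were called higher, and 1 was called higher with DESeq2 (with and without betaPrior), with its size factors in edgeR, with upper-quartile factors, with library totals, with TMM factors made without Ins1 and Ins2, with no filter on low counts, with a minimum of 10 counts per library or under the study's rule. With each library left out, 1 to 2 were called higher and 0 to 1 lower (Slc39a3, without low-glucose library 2). Under the study's rule, applied here to the edgeR values, 865 genes were higher in place of 1579. The authors applied their rule to DESeq2 values, so 865 is not their count.

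Some further genes at low counts changed sign with a library left out, where the log2FC ran from -0.15 to 0.68 for Slc30a4, -0.72 to 1.66 for Slc39a8, -0.43 to 0.094 for Slc39a9, -0.047 to 0.56 for Slc39a13 and -0.12 to 0.24 for Cbwd1. Slc39a8 gave no value under 2 of 19 alternatives, as it was filtered out. No scaling alternative moved the median log2FC of all genes by over 0.05. Without length correction, the order of levels changed for 6 of the 10 genes, with Mt2 at rank 9.

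Replicate numbers are shared between the conditions, but deviations of same-numbered libraries were barely correlated (r = 0.009, 0.006 and 0.009). Pairs with different numbers had r from -0.01 to 0.001. Values this close to 0 do not settle whether a number marks the same mice, and neither labels nor methods say so. With the replicate block, 3 of the 10 genes were called higher (Slc30a1 joined, adjusted p = 0.0404), 1 was called lower, and 1 further zinc gene was called higher (Slc30a6 at 0.0611). Over all genes, the block gave 1561 higher and 1308 lower calls. Among the 10 genes, depth limits Mt2 and Slc30a9 most, with counts of 82 to 286 in a library.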
